A study of Mus musculus with 2 samples.

Results

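The cytosolic ribosomal proteins are described here through their mRNAs in mouse gastrocnemius, the large muscle of the calf. Members were the protein-coding genes whose symbol is Rpl or Rps followed by a number and optional letters, together with Rpl22l1, kept by name, and Rplp0, Rplp1, Rplp2 and Rpsa. Symbols with -ps and the Rps6k kinases were left out. The rule found 83 genes among 55536 annotated genes, of which 22028 are protein-coding. It took 51 proteins of the large subunit (60S) and 32 of the small subunit (40S), spread over 19 chromosomes, with 4 genes (Rpl10, Rpl36a, Rpl39 and Rps4x) on the X chromosome.

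Each ribosome holds close to 1 copy of almost every ribosomal protein, bound to ribosomal RNA, and the proteins of the stalk, which recruits elongation factors, are the best known exception. In mammals the mRNAs of these proteins typically begin with a C followed by a run of pyrimidines, the terminal oligopyrimidine or TOP start, through which growth signals control their translation as a group. Several members have a paralog that takes the same place in the ribosome in particular tissues: Rpl3l is the striated-muscle paralog of Rpl3, whose protein reaches close to the catalytic centre, and Rpl10l and Rpl39l are known from the testis. Ribosomal protein genes have also left many processed pseudogenes, retrotransposed copies of their mRNAs, in the mouse genome.

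The series holds 1 group of 2 total RNA libraries, made from gastrocnemius of B6CASTF1/J males, first-generation hybrids of the strains B6 and CAST, at an age of 2 months. The labels number the libraries as biological replicates 1 and 2, give them separate tissue samples under a single donor entry, and record 300 ng of input RNA with ERCC spike-in RNA. Separate animals are not stated outright, so the spread between the libraries may be partly technical. There was no treatment and no second condition, and no test between groups could be made.

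Expected counts came to 42925570 in replicate 1 and 42467674 in replicate 2. The tissue label matched the markers: the 8 genes of skeletal fibres, most of them fast isoforms, summed to 90102 and 74023 TPM (a level per transcript length, scaled to a fixed total), while 3 of 5 germ cell markers of the testis had 0 reads and none reached 1 TPM. The 7 markers of slow fibres reached a sum of 1246 and 3175 TPM, so the 2 libraries differed in slow-fibre RNA. In bulk RNA, fewer cells of a type and less RNA per cell cannot be told apart. Both libraries had a gene table, called the first tables here, and a separately estimated transcript table summed to genes, called the second tables. Values are from the first tables unless the second are named, and mean ± SD is over the 2 libraries (n = 2).

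Rpl3l and Rpl3 are the pair in which the paralog stood highest above the founder gene. Their coding sequences are far enough apart for reads to be told apart at most positions, and the opening of both is printed to show this. Rpl3l lies at chr17:24727820-24736143 on the plus strand and Rpl3 at chr15:80077791-80091868 on the minus strand (mm10). The coding sequences of their leading coding transcripts, Rpl3-201 (1212 nt) and Rpl3l-202 (1224 nt), were identical at 899 of 1208 aligned bases (74.4%), and the longest identical run was 22 nt. The first 150 coding bases follow from the GENCODE M21 transcripts, with the 35 differing bases in capitals.
Rpl3: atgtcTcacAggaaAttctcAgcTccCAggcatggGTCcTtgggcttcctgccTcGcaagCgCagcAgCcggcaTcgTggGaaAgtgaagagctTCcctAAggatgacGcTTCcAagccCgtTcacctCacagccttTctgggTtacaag
Rpl3l: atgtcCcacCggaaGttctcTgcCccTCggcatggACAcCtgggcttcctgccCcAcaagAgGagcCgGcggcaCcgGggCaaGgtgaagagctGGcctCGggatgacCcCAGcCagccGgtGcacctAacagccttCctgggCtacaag

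In this muscle Rpl3l mRNA exceeded Rpl3 mRNA by more than 10-fold in both libraries and in both kinds of table. Rpl3l stood at 295 TPM (replicate 1) and 298 TPM (replicate 2), from 12808 and 12959 reads. Rpl3 stood at 15.2 and 16.1 TPM, from 533 and 536 reads. The 4 values fall into 2 tight pairs with a wide gap between the genes. Rpl3l was 19.5-fold higher in replicate 1 and 18.5-fold higher in replicate 2, and the log2 ratio of Rpl3 over Rpl3l was -4.25 ± 0.053. Rpl3l thus took 95.1% and 94.9% of the TPM of the pair. Of the reads of the pair it held 96.0% in both libraries (exact Clopper-Pearson 95% intervals, 95.7% to 96.3% and 95.7% to 96.4%), an interval that covers counting error only because reads are not independent molecules.

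The size of the gap depended on how reads of Rpl3 were assigned. In the second tables Rpl3l stood at 511 and 482 TPM and Rpl3 at 33.6 and 32.8 TPM, a difference of 15.2-fold and 14.7-fold. Rpl3 has 23 copies elsewhere in the genome, and these held 43.6% and 42.0% of the reads assigned to Rpl3 and its copies. Nearly all of those reads lay on Rpl3-ps1, a processed pseudogene on the X chromosome that matches Rpl3 at 99.8% of aligned bases and was listed at 10.7 and 10.1 TPM. With the copies added, Rpl3 rose to 26.0 and 26.3 TPM and Rpl3l was 11.3-fold higher in both libraries.

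For Rpl3l no such near-identical relative was found. No copy of it was found among annotated genes, the only ones searched. No annotated gene other than a small RNA overlapped it, and the deposited posterior SD of its count was 0 in both libraries. For Rpl3 the posterior SD was 5.69% and 7.20% of the count. Rpl3 also overlaps Syngr1 on the opposite strand, a gene with 614 and 574 reads (the sources used here do not say if counting was by strand).

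Rpl3l ranked 9 of 83 members by mean TPM and 151 among all protein-coding genes, and it had more reads than any other member. It ranked 11 among members in the second tables and 16 once copies were added to all members. Rpl3 ranked 79, 80 and 80 in the same 3 orders. Among members with reads in both kinds of table, Rpl3 was the lowest after copies were added. The leading transcript, Rpl3l-202, carried 97.5% and 98.2% of the Rpl3l TPM in the first tables and 67.0% and 73.3% in the second.

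Rpl3l did not move with the slow-fibre markers between the libraries. Its log2 ratio of replicate 2 over replicate 1 was 0.07 (interval 0.03 to 0.10), and that of Rpl3 was 0.06 (-0.12 to 0.23). The slow-fibre list had a median log2 ratio of 1.36, with 7 of 7 genes at least 1.5-fold higher in replicate 2, and the skeletal fibre list had a median of -0.23. Heart muscle also uses Rpl3l. Of the heart markers, Nppa and Myl7 had 0 reads and Ryr2 was at 0.0700 TPM in both libraries, whereas Myh6, a heart myosin gene that some skeletal fibres also express, was at 42.5 and 105 TPM.

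**Figure D1:**
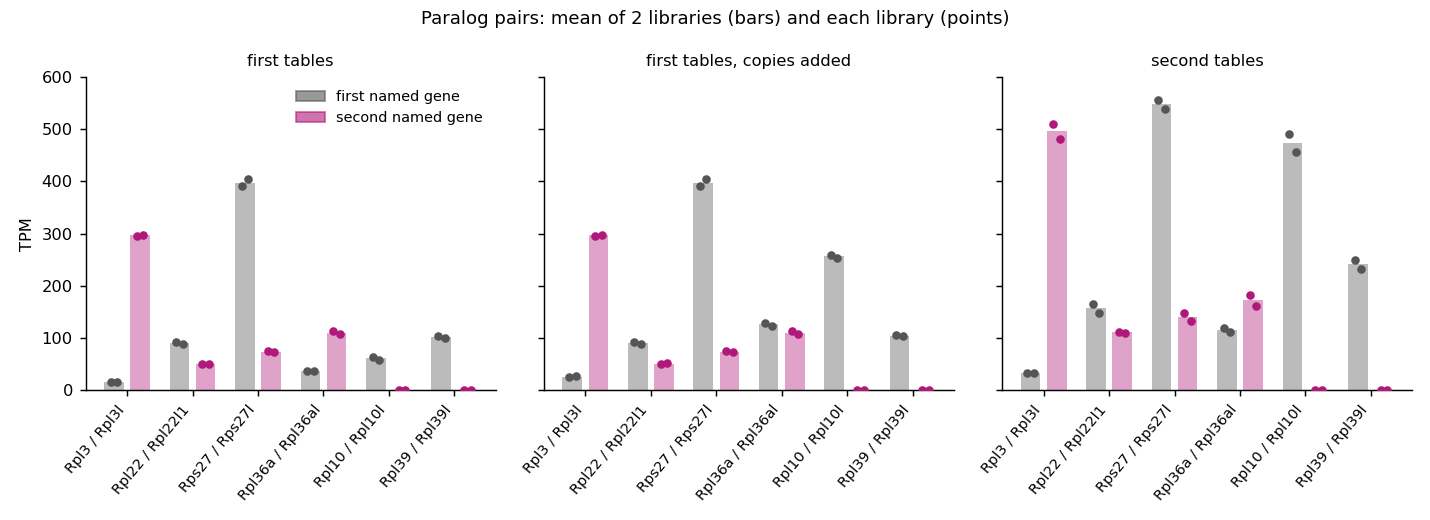
TPM of 6 paralog pairs in the first tables, in the first tables with copies at other loci added, and in the second tables; bars are means of the 2 libraries and points are the libraries. Rpl3l stands above Rpl3 in all 3 panels, Rpl36al stands above Rpl36a except where copies are added, and Rpl10l and Rpl39l are at 0.

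In the other pairs the founder gene was usually the higher one. Rpl22, a protein of the 60S surface, was at 92.1 and 88.2 TPM, and its paralog Rpl22l1 was at 49.6 and 50.6 TPM. The libraries did not overlap between these genes, and the log2 ratio of Rpl22 over Rpl22l1 was 0.85 ± 0.065, or 0.49 ± 0.104 in the second tables. Their coding sequences matched at 70.8% of aligned bases, and copies took at most 1.09% of the reads of either gene, so the ratio hardly moved with copies added (0.84).

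Rps27, a zinc-binding protein of the 40S subunit, was at 392 and 404 TPM, and Rps27l, a paralog known as a target of p53, was at 74.9 and 72.8 TPM. Rps27 was 5.23-fold and 5.55-fold higher, and 3.76-fold and 4.06-fold higher in the second tables. Rps27 and Rps27l coding sequences matched at 76.1% of 255 aligned bases, with no identical run longer than 11 nt. A further gene, Rps27rt, has a coding sequence identical to that of Rps27 over all 255 bases. It was listed at 13.9 and 8.85 TPM in the first tables, with a posterior SD of 24.4% and 27.9% of its count, and at 0 in the second tables, so its own level could not be separated from that of Rps27.

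Rpl36a, on the X chromosome, and the autosomal Rpl36al changed their order with the processing. Rpl36a was at 36.5 and 37.6 TPM and Rpl36al at 114 and 107 TPM, a log2 ratio of -1.57 ± 0.094. In the second tables that ratio was -0.58 ± 0.062. Copies held 58.5% and 56.5% of the reads of Rpl36a and its copies, mostly on Rpl36a-ps2, whose 321 bases are identical to Rpl36a, and no reads fell on copies of Rpl36al. With copies added the log2 ratio turned to 0.19 ± 0.037.

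Rpl10l and Rpl39l, the members known from the testis, had 0 reads in both libraries and in both kinds of table. With 0 reads, up to 3 remain possible, which is 0.0699 CPM (counts scaled to library size) in replicate 1 and 0.0706 CPM in replicate 2. Their founder genes were both expressed: Rpl10, which joins the 60S subunit late in its assembly, at 64.6 and 57.6 TPM, and Rpl39, a small protein of the exit tunnel, at 104 and 99.8 TPM. As a share of reads of the pair, 0 reads allow up to 0.231% and 0.258% for Rpl10l and up to 0.201% and 0.209% for Rpl39l (exact intervals).

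The stalk proteins did not share a level. Rplp1, the highest member, was at 518 and 519 TPM, its partner Rplp2 at 222 and 227 TPM, and Rplp0, the base to which both bind, at 222 and 244 TPM. Rplp1 exceeded Rplp2 by 2.33-fold and 2.28-fold, and 1.99-fold and 1.57-fold in the second tables. Its excess over Rplp0 was 2.33-fold and 2.13-fold in the first tables, but in the second tables Rplp0 was the higher (524 and 545 TPM against 457 and 438). Copies at other loci held 25.7% and 23.8% of the reads of Rplp0 and its copies. With copies added in the first tables, Rplp0 came to 328 and 348 TPM, and Rplp1 exceeded it by 1.69-fold and 1.61-fold. Rpsa, a 40S protein that also serves as a laminin receptor, was at 155 and 159 TPM, with 23.5% and 22.4% of the reads of its set on copies.

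As a group, 81 of 83 members reached 1 TPM in both libraries, against 9824 of 22028 protein-coding genes (44.6%). At 10 TPM there were 80 members, at 100 TPM there were 58, and at 200 TPM there were 29. Of the 100 highest protein-coding genes 1 was a member (Rplp1), and of the 500 highest 62. The sum over members was 13573 and 13810 TPM (13691 ± 168), which was 3.44 ± 0.180% of the TPM of nuclear protein-coding genes. As reads they made up 0.601% (exact interval 0.5983% to 0.6030%) and 0.618% (0.6155% to 0.6202%) of all expected counts. These intervals do not overlap, so this share differed by more than the counting error they cover, though by little, and they take reads as independent. Of the expected counts of nuclear protein-coding genes the members made up 0.803% and 0.880%, which lie farther apart.

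Most members lay close to the middle of the group. The median was 155 and 160 TPM (158 ± 3.85), the lower quartile 96.4 ± 0.590 and the upper quartile 222 ± 4.19. In both libraries 61 members were within 2-fold of the median. The medians were 153 and 161 TPM for the 60S proteins and 156 and 160 TPM for the 40S proteins, and with copies at other loci added 208 and 214 TPM against 218 and 218 TPM, a difference that was not tested. The SD of log2 TPM over the 81 expressed members was 1.12 ± 0.0162, and the highest member stood 45.7-fold above the lowest expressed one.

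The highest members included Rplp1, Rps27, Rpl41, Rps29, Rps14, Rpl23a, Rps25 and Rpl3l. Below Rplp1 and Rps27, the very short 60S protein Rpl41 was at 365 and 359 TPM. Rps29, a small zinc-binding 40S protein, was at 328 and 359 TPM, and Rps14, a 40S protein near the platform, at 322 and 299 TPM. Rpl23a (298 and 307 TPM), Rps25 (290 and 305 TPM) and Rpl3l (295 and 298 TPM) overlapped with one another, and Rpl23a and Rps25 with Rps14. Rplp1 lay above Rps27, and Rps27 above Rpl41, by more than the difference between the libraries, and no later gap between these genes in this order was as wide as that difference. Rplp1 is among the members whose order depends on the table, ranking 16 in the second tables, where Rpl41 led with 847 and 770 TPM.

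**Figure D2:**
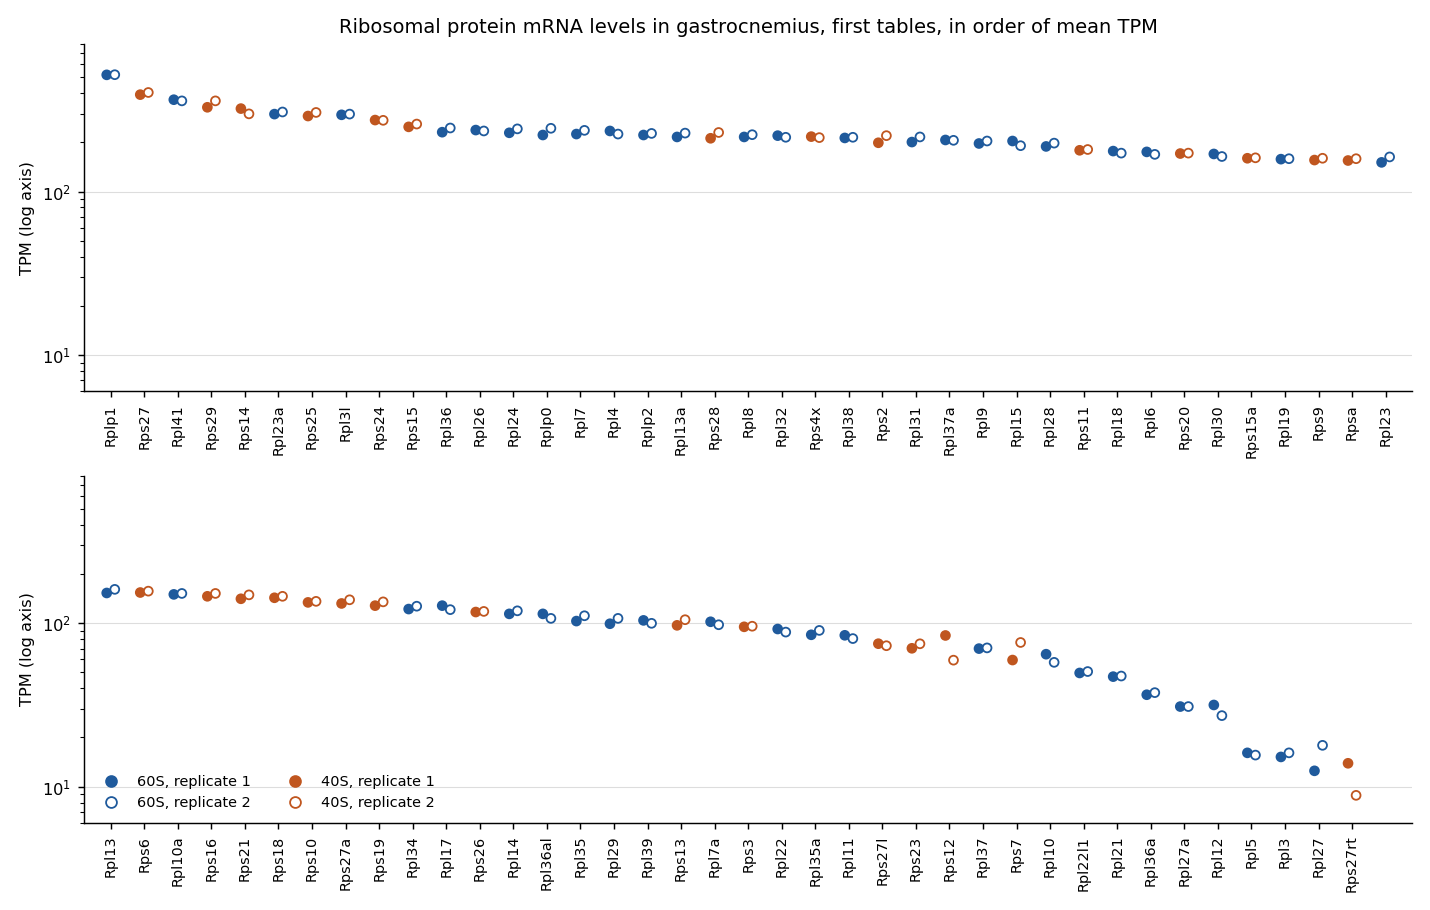
TPM (log axis) of 77 of the 81 members with reads, in order of mean TPM in the first tables; filled points are replicate 1, open points replicate 2, and colour gives the subunit. The curve is flat over most of the group and falls steeply below Rpl10, and Rpl3 and Rpl27 are near its foot while Rpl3l is near its top.

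The 10 lowest members included the 2 without reads and Rps27rt. The other 7, all 60S proteins, were Rpl27 (12.5 and 17.9 TPM), Rpl3 (15.2 and 16.1), Rpl5 (16.1 and 15.6), Rpl12 (31.6 and 27.2), Rpl27a (30.9 and 30.9), Rpl36a (36.5 and 37.6) and Rpl21 (47.1 and 47.5). Rpl5 and its partner Rpl11 carry 5S ribosomal RNA into the 60S subunit, and Rpl11 was listed at 84.3 and 80.5 TPM. With copies at other loci added the order turned, with Rpl5 at 171 and 176 TPM and Rpl11 at 143 and 146 TPM. The order at the foot was not distinct, since Rpl27, Rpl3 and Rpl5 overlap. For all 7, over 40% of the reads assigned to the gene and its copies lay on the copies.

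Copies were sought among all annotated genes outside the member loci, by aligning their transcripts to those of the members (at least 90% identity over at least 80% of the copy). This search was added after the levels had been seen. It found 1112 copies of 79 members, 1099 of them annotated as pseudogenes and 12 as protein-coding. Rpl3l, Rpl39l and Rps27rt were among the 4 members without one; Rps27rt was itself left out as a target because it duplicates Rps27. Reads were assigned to 406 copies, and 99 reached 1 TPM in both libraries.

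The copies together held 66474 and 68143 reads, which was 20.5% and 20.6% of the reads of members and copies. In the second tables the figure was 9.45% and 9.89%. In 14 members the copies held more reads than the gene itself in both libraries: Rpl27, Rpl5, Rpl12, Rpl10, Rps23, Rpl27a, Rpl28, Rpl37, Rpl21, Rps12, Rpl36a, Rps7, Rpl35 and Rpl7a. The copies held over 20% of the reads in 29 members and under 1% in 20. Rps27rt and Rps27 are among the 20 by construction in part: Rps27rt was no target of the search, and as a member it was not counted as a copy of Rps27.

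Many of the copies with reads are exact or nearly exact. Rpl5 was listed with 956 and 924 reads, while Gm15500, a transcribed processed pseudogene on chromosome 7 that is identical to Rpl5 over 1018 aligned bases, was listed with 4901 and 5068. Rpl10 had 1598 and 1426 reads, and Rpl10-ps3, annotated as protein-coding on chromosome 9 and identical over 740 bases, had 4432 and 4487. The copy was the higher by a wide margin in both pairs. Rps23-ps1 (2475 and 2464 reads) and Rpl28-ps1 (2252 and 2394 reads), both identical to their founder genes over their whole length, likewise exceeded Rps23 (1013 and 1051 reads) and Rpl28 (1719 and 1764 reads). The second tables listed 0 reads on Rpl10-ps3, Rps23-ps1 and Rpl28-ps1 in both libraries, and 3599 and 3860 on Gm15500.

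Rpl27, a 60S protein, gave the widest case. The gene had 200 and 302 reads, and its copies 1949 and 1866, or 90.7% and 86.1% of the total. Of the copies, Gm11518 on chromosome 11 and Rpl27-ps3 on chromosome 18, each of 411 bases and identical to Rpl27, were given the same number of reads, 973 each in replicate 1 and 928 each in replicate 2. In the second tables both were at 0 and Rpl27 stood at 240 and 235 TPM, close to the median member. With copies added in the first tables, Rpl27 came to 194 and 192 TPM.

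Copies of Rpl21 changed places between the libraries. Gm10163 was given 1.06 reads in replicate 1 and 1269 in replicate 2, whereas Gm10240 and Gm13370 were given 659 each in replicate 1 and 163 each in replicate 2. All 3 match Rpl21 at 99.6% of aligned bases. Rpl21 itself kept 1357 and 1379 reads, and all of its copies together had 1981 and 2089.

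**Figure D3:**
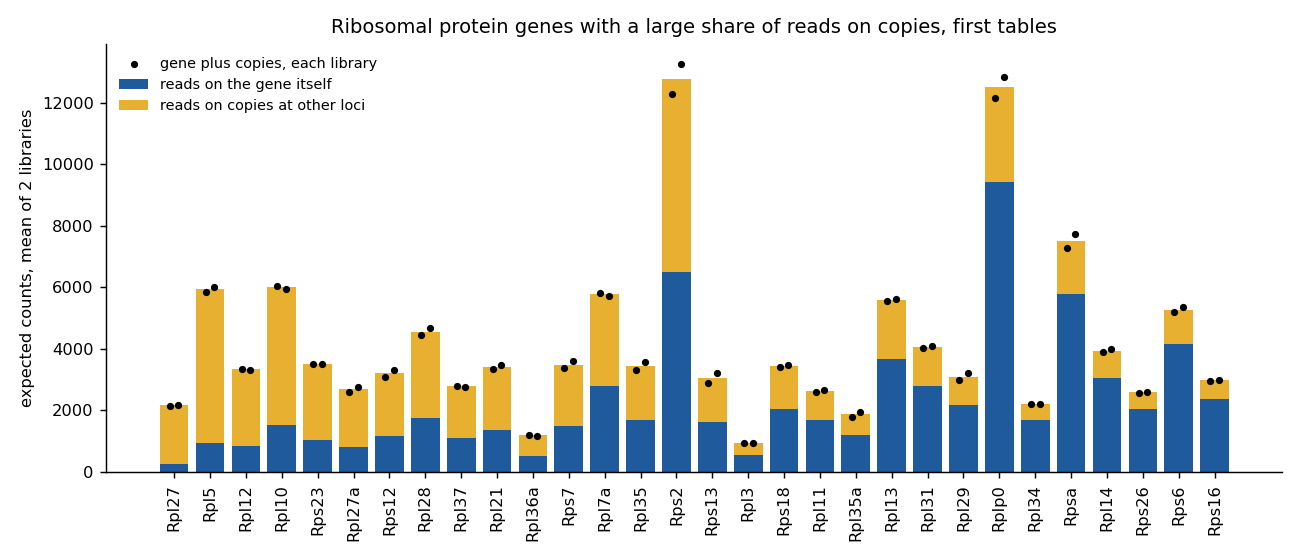
Expected counts on the gene itself (lower bar) and on its copies at other loci (upper bar) for members with a large share on copies, as the mean of the 2 libraries; points are the summed count of each library. Rpl27, Rpl5, Rpl12 and Rpl10 have most of their reads on copies, and the summed counts of the 2 libraries lie close together.

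With copies added, the members became more alike. The median rose to 216 and 215 TPM, and 72 members in replicate 1 and 70 in replicate 2 were within 2-fold of it. The SD of log2 TPM over the 81 expressed members fell from 1.12 to 0.817 ± 0.0352. In the second tables without copies it was 0.812 ± 0.00461, but over 80 members. Rps27rt, the lowest expressed member of the first tables, was at 0 there and did not enter, so the 2 values cover unlike sets. The range did not narrow: the highest member was then 49.0-fold above the lowest, since Rplp1 gained and Rps27rt did not. The lowest members other than Rps27rt were Rpl3 (26.0 and 26.3 TPM), Rpl22l1 (50.1 and 51.2 TPM) and Rps27l (74.9 and 72.8 TPM), each from a paralog pair, followed by Rpl22 (92.5 and 88.6 TPM). Rpl5, Rpl27, Rpl12 and Rpl27a all moved above 170 TPM.

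Levels of single members differed between the 2 kinds of table. After scaling both to the same total over nuclear protein-coding genes, 80 members could be compared, and the median log2 ratio of second over first was 0.18. In 10 members the second tables were at least 2-fold higher: Rpl27 (9.69-fold), Rpl27a (6.02-fold), Rpl10 (4.84-fold), Rpl5 (4.29-fold), Rps23 (3.28-fold), Rpl37 (2.95-fold), Rpl21 (2.47-fold), Rps12 (2.28-fold), Rpl12 (2.07-fold) and Rpl31 (2.00-fold). Of these, 9 are among the 14 with more reads on copies than on the gene, and Rpl31 had 32.5% and 29.4% on copies. In 2 members the second tables were at least 2-fold lower, Rpl36 (0.320 of the first) and Rpl19 (0.359). There the copies of Rpl19 were at 185 and 166 TPM, above the gene itself at 92.0 and 89.9 TPM. In the first tables these copies were at 9.33 and 11.3 TPM. Copies of Rpl36 were at 69.3 and 74.0 TPM in the second tables, against 115 and 128 TPM for the gene. The cause of the lower levels was not tested. Across the members, Spearman's rho between the tables was 0.70 and Pearson's r of log2 TPM 0.67, and rho was 0.80 with copies added to both. These describe 80 genes of the same libraries and carry no p.

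Effective lengths are given here for the second tables only, so they were not compared between the 2 kinds. The second tables gave Rplp1, of 499 nt, an effective length of 170 nt and 172 nt. Rpl41-203, of 437 nt, was given 127 nt in both libraries but 0 TPM. Most of the Rpl41 level there lay on Rpl41-204, with 653 and 551 TPM at effective lengths of 178 nt and 180 nt. For Rplp1 the second tables held 2199 and 2207 counts against 7114 and 7138 in the first tables. The gap of Rplp1 between the tables was not tested against any cause.

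**Figure D4:**
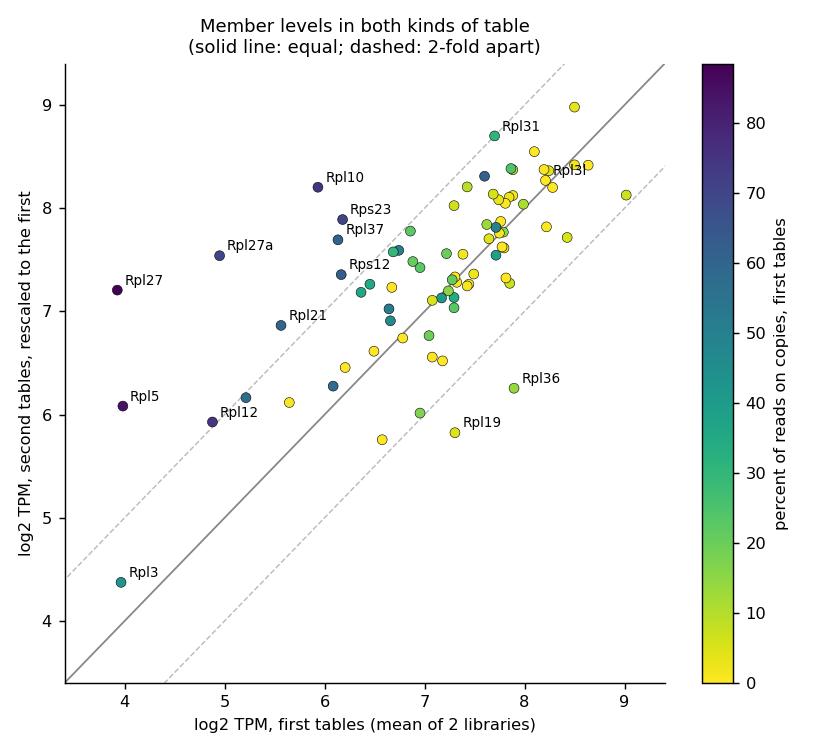
Log2 TPM of 80 members in the second tables, rescaled to the first, against log2 TPM in the first tables (means of 2 libraries); colour is the percent of reads on copies. Rpl27, Rpl27a, Rpl10 and Rpl5 stand farthest above the line of equality and are dark, Rpl36 and Rpl19 stand below it, and Rpl3l is on the line.

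The deposited posterior SD, which describes the uncertainty within the first tables and not the difference from the second, had a median of 0.787% of the count in replicate 1 and 0.775% in replicate 2. It was also low in members with most of their reads on copies, such as Rps23 (2.64% and 2.42%) and Rpl5 (3.50% and 3.33%). It exceeded 5% in both libraries in 6 members, Rps27rt, Rps12 (9.42% and 13.8%), Rpl10 (10.8% and 10.3%), Rpl27 (9.83% and 8.41%), Rpl3 and Rpl36a (5.68% and 5.90%). Of the members, 23 overlap another gene on the opposite strand and 6 on the same strand. Several partners had counts of the same order as the members, among them those of Rpl32 (Cand2, 4553 and 4320 reads) and Rps14 (Ndst1, 3163 and 3865 reads). The same held for partners of Rpl35 (Arpc5l, 1826 and 1711 reads), Rps18 (Vps52, 1277 and 1119 reads) and Rpl28 (Ube2s, 1070 and 1015 reads). Other partners had far fewer reads than the member, such as Tlcd1 beside Rpl23a (23.0 and 16.0 reads).

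The 497 annotated transcripts of the members did not contribute equally. Transcripts of the protein-coding class carried 82.6% and 82.9% of member TPM in the first tables and 67.4% and 67.1% in the second. Transcripts with a retained intron carried 7.80% and 7.36%, or 17.8% and 17.6% in the second tables. The difference between tables was wider than that between libraries in both classes.

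In a few members no single transcript led. The leading transcript held 28.7% and 32.9% of the TPM of Rpl13a, a 60S protein also known for silencing inflammatory mRNAs, and 38.2% and 45.6% for Rpl27. The share was 44.9% and 43.9% in Rps24, 45.0% and 51.0% in Rpl10, 45.5% and 52.8% in Rpl15 and 45.6% and 52.0% in Rpl31. Rpl13, an unrelated gene despite its name, had 99.4% and 99.6% on 1 transcript. The leading transcript was not always one of the protein-coding class. Transcripts with a retained intron led in members such as Rps16, Rps18, Rps20, Rps23 and Rps26. Processed transcripts led in Rpl23, Rpl24, Rpl35, Rpl37 and Rpl22l1. That of Rpl22l1 held 75.4% and 76.9%, but 7.26% and 7.16% in the second tables. In Rpl12 (52.7% and 54.1%) and Rpsa (81.4% and 78.3%) the leading transcript was annotated as a target of nonsense-mediated decay.

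Introns of ribosomal protein genes house many small nucleolar RNAs, which guide the chemical marking of ribosomal RNA. Here 29 members held 56 such genes on their own strand. Expressed members with one had a median of 157 TPM and those without one 167 TPM; the difference was not tested. The tables listed most of the small RNAs themselves at or near 0, including those of Rpl4 and Rpl13a, and the highest were those in Rps3 (218 and 172 TPM summed).

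Promoter sequences from the RefSeq table (GRCm38) were matched for 63 of 83 members, with 75 start sites. A C followed by at least 4 bases that are C or T, beginning within 10 bases of the start on the sense strand, was found at 42 of 75 member starts (56.0%), against 30.7% of all 32851 promoters of the table. The start base itself was C in 28.0% of member starts and 16.3% of all. The E-box CANNTG, a palindrome and so the same on both strands, was found in the 100 bases before the start in 16.0% of member starts and 34.4% of all. The 30 bases around the start are shown for a highly expressed member, for the muscle paralog and for a paralog pair of 60S members, from 20 bases before the start, with the C/T runs in capitals.
Rps27 (chr3:90213639-90213668, minus strand): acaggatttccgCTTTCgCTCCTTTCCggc
Rpl22l1 (chr3:28805488-28805517, plus strand): cgtgcgtgcggcgcaagcccgttCTCTTCC
Rpl22, start beside the gene model (chr4:152325706-152325735, plus strand): ccgacttcgccctgggaaaagcaatagctg
Rpl22, start upstream of it (chr4:152324416-152324445, plus strand): atcagcgctgCTTCTggaatgttccagCTC
Rpl3l (chr17:24727806-24727835, plus strand): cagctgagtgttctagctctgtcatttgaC

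The Rps27 window holds a run before the start and another across it, and that of Rpl22l1 holds one just after it. Rpl22 has 2 listed starts, and a run was found only at the one upstream of the gene model. The Rpl3l window, at the start of the gene model, has only the first base of a run, at its end, and opens with an E-box (cagctg). Another listed start, within the gene, has no run. The 100 bases before the Rpl3l start shown hold 2 E-boxes in all, and Rps27, Rpl22 and Rpl22l1 hold none at the starts shown. A match describes the letters of these windows and says nothing of binding.

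The members were then compared between the libraries. Each ratio sets replicate 2 against replicate 1, after TMM scaling of the counts and with 0.5 added, and a gene was called apart at 1.5-fold or more. With 1 library on each side these ratios have no replicate check. Of 14827 genes whose 2 counts summed to 20 or more, 968 (6.53%) were higher in replicate 2 and 894 (6.03%) higher in replicate 1, or 12.6% in all. Of 81 members tested, 1 was higher in replicate 2 and 1 in replicate 1. Of the 9326 other nuclear protein-coding genes with at least the lowest count of a member 4.99% were apart, which leaves the members' count near the background. Within 0.32 of 0 on the log2 scale were 78 of 81 members (96.3%), against 83.5% of the same 9326 genes, while 28.4% of all genes tested were outside it. The 9326 genes were chosen by a lower limit of count only, so their counts were not matched to those of the members.

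Rpl27 was the member higher in replicate 2, with 200 and 302 reads and a log2 ratio of 0.64 (0.38 to 0.91). Rps27rt was the one higher in replicate 1, with 131 and 83.7 reads and a log2 ratio of -0.59 (-1.01 to -0.19). Both have nearly identical sequence elsewhere: the ratio of Rpl27 was 0.08 in the second tables, and Rps27rt had no reads there. Rps12, the third member past 0.32 on the log2 scale, had 1361 and 985 reads and a ratio of -0.42 (-0.54 to -0.30), but 0.19 in the second tables. Its copy Rps12-ps3, of identical sequence, went the other way, with 1362 and 1778 reads.

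The remaining ratios were small. The largest rises after Rpl27 were those of Rps7 (0.26), Rpl14 (0.21), Rps2 (0.21) and Rps29 (0.18), and the largest falls after Rps12 were those of Rpl10 (-0.12), Rpl12 (-0.10), Rps14 (-0.05) and Rpl22 (-0.05). Ratios from the second tables, in the same order, were -0.05, 0.11, 0.21 and 0.68 for the rises and 0.04, -0.18, -0.02 and -0.05 for the falls. Rps7 and Rpl10 thus changed sign. In the second tables the widest ratio was that of Rps29 (0.68), followed by Rps28 (0.52). Both are short, but the still shorter Rps27, Rpl38, Rpl28 and Rpl36 had ratios of 0.10, 0.09, 0.13 and 0.26 there. The median log2 ratio of members was 0.08 with an SD of 0.13, and that of all genes 0.00 with an SD of 0.52. Above 0 were 67 of 81 members, against 7448 of all 14827 genes tested. Of the 9326 other nuclear protein-coding genes with at least the lowest member count, 4856 were above 0. The median of members lay between 0.04 and 0.13 under 3 other scalings and the main one, with 58 to 76 members above 0. The median over genes with a summed count of 200 or more was 0.01 with TMM and 0.06 with ERCC scaling. Proteins of the 40S subunit had a median of 0.10 and those of the 60S subunit 0.06.

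**Figure D5:**
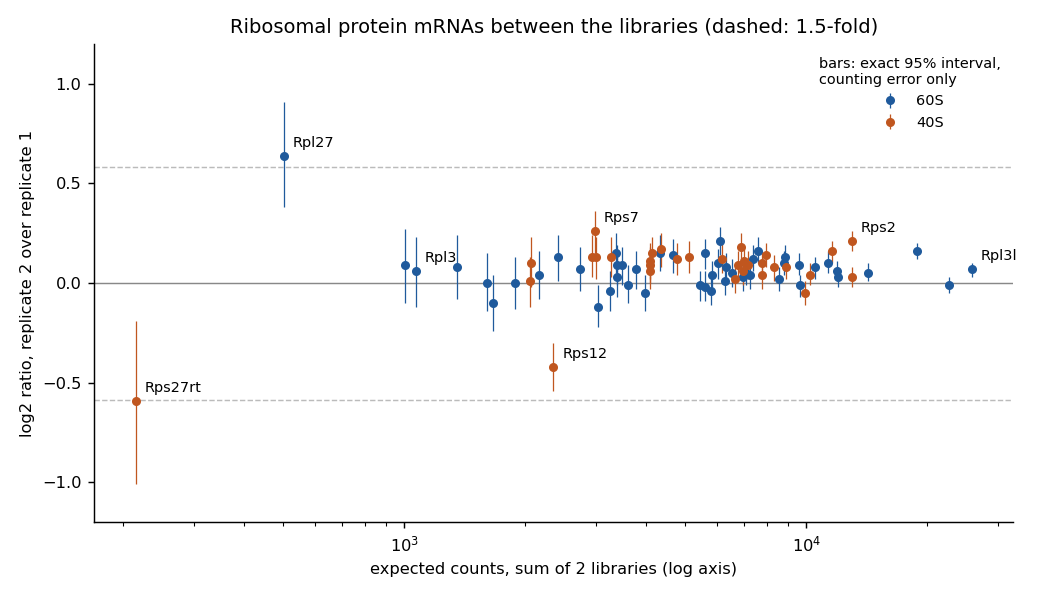
Log2 ratio of replicate 2 over replicate 1 for the 81 members with reads against their summed expected count (log axis); bars are exact 95% intervals that cover counting error only, and dashed lines mark 1.5-fold. Rpl27 and Rps27rt, with the lowest counts, lie on or past the dashed lines, Rps12 lies below the other members, and Rpl3l is near 0.

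Genes of the ribosome and its supply outside the symbol rule were measured alongside. The ribosomal proteins with other names stood at levels of the members: Fau, a fusion that yields a 40S protein, at 161 and 157 TPM, Rps3a1 at 159 and 158 TPM and Rack1, a signalling scaffold on the 40S subunit, at 150 and 157 TPM. Rpl7l1, a relative of Rpl7 (225 and 237 TPM), was at 13.7 and 15.2 TPM. All 8 genes of this list reached 1 TPM, their median log2 ratio between libraries was 0.07, and 0 of 8 were 1.5-fold apart. Of all genes tested 12.6% were apart, and of other nuclear protein-coding genes with at least the lowest member count 4.99%.

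Other mRNAs with a TOP start were listed as well. All 15 reached 1 TPM, their median log2 ratio was 0.01, and 0 of 15 were 1.5-fold apart, a count near the same background. Tpt1, a translationally controlled protein, was at 1423 and 1490 TPM, and Eef2, the elongation factor that moves the ribosome along the mRNA, at 523 and 483 TPM, the first above every member and the second at the level of Rplp1. Eef1a1, which delivers transfer RNA, was at 153 and 143 TPM, close to the median member.

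Factors that build ribosomes were lower. Of the 20 listed assembly genes 19 were found, with a median of 9.99 and 8.81 TPM, a median log2 ratio of -0.04 and 0 called apart. Nucleolin (Ncl) was the highest of those named, at 41.4 and 38.7 TPM, and fibrillarin (Fbl), the methyltransferase of ribosomal RNA, was at 8.30 and 8.81 TPM. The 7 genes for transcription of ribosomal RNA had a median of 5.70 and 5.35 TPM and a median log2 ratio of -0.05, with 0 called apart, and at these list sizes neither count differs from the background of 4.99% by more than 1 gene. Polr1a, the largest subunit of RNA polymerase I, was at 16.1 and 15.1 TPM.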

How the data were processed

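Total RNA of 1 group of 2 libraries was analysed. Per the file headers, the first tables deposited by the authors hold expected counts and TPM per gene and transcript, the posterior SD of each count and posterior mean TPM (read as scores), and the percent of a gene's TPM on each transcript. The second tables, per the file headers, give TPM and estimated counts of transcripts, and were summed to genes. The labels and deposited notes give mm10 and GENCODE M21; which programs were run is not stated in the sources used here. Reads of the hybrid were assigned to the B6 reference, and alleles were not separated.

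TMM factors came from edgeR 4.0.16 in R 4.3.3, with DESeq2 1.42.0 size factors as an alternative. No test was made. Ratios added 0.5 to each count, for genes whose counts summed to 20 or more, and intervals are exact at 95%. The ratio calculation was checked on simulated data. Copies were matched with megablast (BLAST+ 2.17.0). Named genes are the 10 highest and 10 lowest members, the paralog sets, the extremes of the ratio between libraries, of the table kinds, of the posterior SD and of the leading share, and listed genes outside the rule. A few named genes are not reported here. Members and lists were chosen with earlier results of these data known. Marker lists of other cells had sums, in replicates 1 and 2, of 41.4 and 46.5 TPM (endothelial), 199 and 192 (fibro-adipogenic), 20.6 and 17.4 (macrophage), 229 and 208 (erythroid), 42.6 and 105 (heart) and 0.0800 and 0.0800 (testis).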

Additional observations from a re-analysis of the deposited data

How the results depend on the processing

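No paired analysis was possible because the series has 1 group, so replicate numbers pair no samples. Of the main values, the summed TPM of 13691 was 24971 in the second tables, 13472 as posterior mean TPM, 34424 when rescaled to nuclear protein-coding genes, 15745 with the 297 pseudogenes named after members, and 18216 with copies matched by sequence, a setting chosen after seeing the data. The median TPM of 158 was 279, 396, 180 and 215 in the same order without the posterior mean, which gave 155. The log2 ratio of Rpl3 over Rpl3l of -4.25 was -3.90 in the second tables, -3.51 with named pseudogenes and -3.50 with matched copies, so its direction held in each. The share of expected counts of 0.609% was 0.647% in the second tables, 0.842% of nuclear protein-coding counts, 0.681% with named pseudogenes and 0.767% with matched copies. The 2 members 1.5-fold apart fell to 1 with ERCC scaling (Rpl27), with 2 added to each count (Rpl27), in the second tables (Rps29) and with matched copies (Rps27rt), and to 0 at 2-fold. The median ratio stayed between 0.04 and 0.13. With 1 library left out, the summed TPM was 13573 or 13810, the median 155 or 160, the log2 ratio of Rpl3 over Rpl3l -4.28 or -4.21, the share 0.601% or 0.618%, and 81 members reached 1 TPM. Depth gave the log2 ratio of a member a median interval of ±0.075. The cause of these differences was not tested.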
